A study of Mus musculus with 6 samples.

Results

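The enzymes that make serine and carry its carbon units through the folate cycle were followed in RAW264.7 cells, an established mouse macrophage-like line, after transfection with a miR-342-3p mimic. The set comprised 9 genes, namely Phgdh, Psat1, Psph, Shmt1, Shmt2, Mthfd1, Mthfd2, Mthfd1l and Aldh1l2. They were taken by gene symbol, each from the probe sets annotated to that gene alone, and all 9 were among the 19938 genes measured. The compared cells received either the miR-342-3p mimic, which stands in for the mature microRNA (miRNA), or the negative control mimic. RNA was isolated 18 h after transfection and put on Affymetrix whole-transcript mouse arrays, with 3 arrays in each group. Both groups were the same cell line grown and transfected in the same way, so the control is a transfected one and not an untouched culture. The level of mature miR-342-3p was not analyzed here.

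Serine is built from a glycolytic intermediate in a chain of enzymes, PHGDH, PSAT1 and PSPH. Serine hydroxymethyltransferases then move a carbon from serine to tetrahydrofolate and release glycine, in the cytosol (SHMT1) and in mitochondria (SHMT2). The folate-bound carbon serves purine and thymidylate synthesis and the remethylation of homocysteine, and several of these enzymes are known targets of the stress-induced transcription factor ATF4. The sequence of the miRNA is shown because the mimic is what set the groups apart by design. It lies at chr12:108658680-108658702 (GRCm38.p6, plus strand) in RefSeq, and capitals mark the seed, bases 2 to 8, by which a miRNA recognizes its targets.
mmu-miR-342-3p: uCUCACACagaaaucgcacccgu

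The deposited log2 values allow a difference between the groups for each gene, but the level of one probe set cannot be set against that of another. Log2 fold changes below are miR-342-3p minus control from limma, with the standard error (SE) and the Benjamini and Hochberg false discovery rate (FDR) over all genes, and a gene was called at an FDR under 0.1. Over all genes the median log2 fold change was 0.069. The share of lower genes among those called was 64.2%, against 77.2% with each array centered on its median and 43.9% with quantile normalization repeated. The miR-342-3p arrays were the more spread, and replicate 3 lay nearest to the controls (correlations across genes of 0.9958 to 0.9961 with them, against 0.9853 to 0.9877 for replicates 1 and 2). Of 8 macrophage markers, Itgam (-0.35) and Fcgr1 (-0.35) were called lower and Spi1 (0.35) was called higher, beside 7.42% and 4.14% of all genes. Ptprc had the largest change of the 8 (-0.59) but was not called (FDR = 0.16). Pdgfra (0.49) was called among 5 fibroblast markers, and none of 5 lymphocyte markers passed limma's test, also at an unadjusted p under 0.05. The part of these markers in the results below was not tested.

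In miR-342-3p-transfected cells, 1 of the 9 enzymes was lower and none was higher, while the other 8 missed the FDR threshold. The gene called was Mthfd1, the cytosolic enzyme that interconverts the folate-bound carbon units. Over all genes, 7.42% were called lower and 4.14% higher, so 1 of 9 is near the background. At an unadjusted p under 0.05 limma, which the paper also used for these arrays, gave 2 lower and 2 higher enzymes. The methods' t-test, which the paper names for comparisons of groups in general, gave 3 lower and none higher, with none called after adjustment. At the same threshold limma gave 13% of all genes lower and 12.5% higher, and the methods' t-test 9.81% lower and 10.4% higher. The median log2 fold change of the 9 enzymes was -0.025, and their values reached from -0.30 to 0.26.

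Differences of this size stood beside an unequal spread. The SD over the miR-342-3p arrays was larger than over the control arrays for all 9 enzymes, at 0.045 to 0.20 against 0.014 to 0.071. The same held for 84.9% of all genes. The groups did not overlap for 6 of the 9 enzymes. All 3 miR-342-3p values lay below the controls for Shmt1, Shmt2, Mthfd1 and Mthfd1l, where 15.5% of all genes did so, and above the controls for Mthfd2 and Aldh1l2, where 21.4% did so. Among the miR-342-3p arrays, replicate 2 held the highest value for 7 of the 9 enzymes and replicate 3 for none. The same count was not taken over all genes, so it is not read as a trait of the enzymes. In bulk RNA, a smaller share of cells that express a gene and less of its RNA per cell cannot be told apart.

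**Figure D1:**
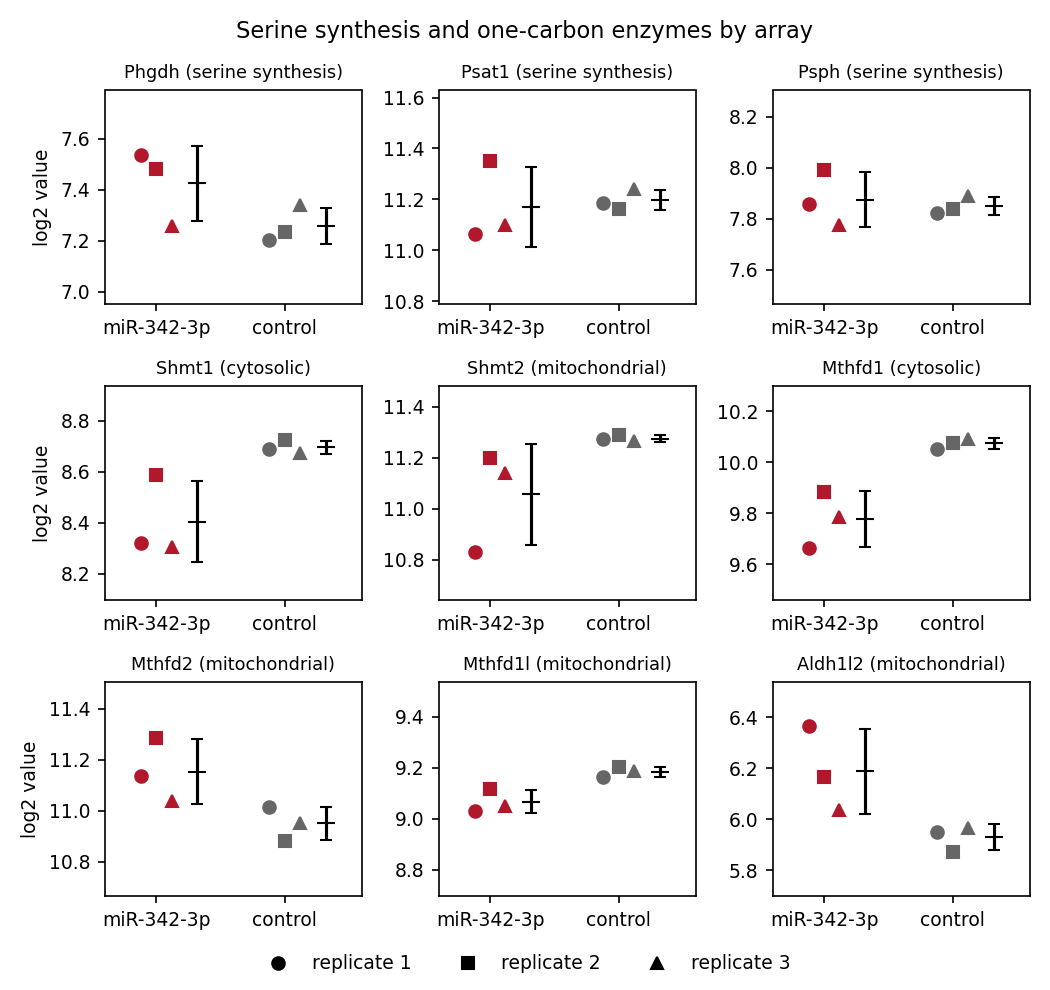
Log2 value of each enzyme (vertical axis, with the same span in every panel) on the 3 miR-342-3p arrays (red) and the 3 control arrays (grey); the shape gives the replicate and the black bar the mean ± SD. The groups overlap for Phgdh, Psat1 and Psph and are apart for the other 6 enzymes.

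None of the 3 serine synthesis enzymes passed the test, also at an unadjusted p under 0.05 with limma or the methods' t-test. Phgdh, which encodes the dehydrogenase at the entry of the pathway, had log2 values of 7.54, 7.48 and 7.26 in miR-342-3p-transfected cells, against 7.20, 7.23 and 7.34 in control cells. miR-342-3p replicates 1 and 2 were above every control, and replicate 3 lay among them. The log2 fold change was 0.17 (SE 0.094, FDR = 0.28), with a 95% interval of -0.046 to 0.38 that is not adjusted for the number of genes. Without miR-342-3p replicate 3 it was 0.25 and was called (FDR = 0.089), but it was 0.11 without miR-342-3p replicate 1 (FDR = 0.49) and 0.078 with array weights (FDR = 0.64).
Psat1, the aminotransferase of the second step, had 11.06, 11.35 and 11.10 in miR-342-3p-transfected cells, against 11.19, 11.16 and 11.24 in control cells. Replicate 2 was above all controls and the other miR-342-3p arrays were below them. A log2 fold change of -0.025 (SE 0.093, FDR = 0.87) had a 95% interval of -0.24 to 0.19.
Psph, the phosphatase that releases serine, had 7.86, 7.99 and 7.78 in miR-342-3p-transfected cells, against 7.82, 7.84 and 7.89 in control cells. The values were interleaved, and the log2 fold change was 0.025 (SE 0.081, FDR = 0.85; 95% interval -0.16 to 0.21). Psat1 and Psph were called under none of the 16 alternative settings, in which the log2 fold change lay on both sides of 0 (-0.11 to 0.036 for Psat1 and -0.033 to 0.074 for Psph). Another probe set that names Phgdh together with a second gene was not used.

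The cytosolic enzymes had the largest differences below 0. Mthfd1 had log2 values of 9.66, 9.88 and 9.78 in miR-342-3p-transfected cells, against 10.05, 10.08 and 10.09 in control cells. Every miR-342-3p value lay below the lowest control, with a gap of 0.17 between the groups. Mthfd1 had a log2 fold change of -0.30 (SE 0.081, FDR = 0.070; 95% interval -0.48 to -0.11), or 81.4% of the control level on the linear scale. The call was lost without control replicate 1, 2 or 3 (FDR = 0.23, 0.24 and 0.25), at log2 fold changes between -0.31 and -0.29.
Shmt1, the cytosolic serine hydroxymethyltransferase, had 8.32, 8.59 and 8.31 in miR-342-3p-transfected cells, against 8.69, 8.73 and 8.68 in control cells. All miR-342-3p values were lower, with replicate 2 nearest to the controls. Its log2 fold change of -0.29 (SE 0.093; 95% interval -0.50 to -0.081) was close to that of Mthfd1, but the FDR of 0.102 missed the threshold. Without miR-342-3p replicate 2 the log2 fold change was -0.38 and Shmt1 was called (FDR = 0.038).

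None of the 4 mitochondrial enzymes was called, and they lay on both sides of 0. At an unadjusted p under 0.05, limma gave 2 higher, beside 12.5% of all genes, and the methods' t-test 1 lower, beside 9.81%. Shmt2, the mitochondrial serine hydroxymethyltransferase, had 10.83, 11.20 and 11.14 in miR-342-3p-transfected cells, against 11.27, 11.29 and 11.26 in control cells. The miR-342-3p values were all lower, but replicate 1 stood apart from the others, and the SD was 0.20 in miR-342-3p-transfected and 0.014 in control cells. The log2 fold change was -0.22 (SE 0.10, FDR = 0.22; 95% interval -0.45 to 0.015), and it was -0.11 without miR-342-3p replicate 1.
Mthfd1l, the mitochondrial enzyme that releases formate for export to the cytosol, had 9.03, 9.12 and 9.05 in miR-342-3p-transfected cells, against 9.16, 9.20 and 9.19 in control cells. The groups were apart by a small gap of 0.046. Mthfd1l had a log2 fold change of -0.12 (SE 0.071, FDR = 0.31; 95% interval -0.28 to 0.043), and Mthfd1l was called under none of the 16 alternative settings, with a value of -0.057 after repeated quantile normalization.
Mthfd2, the mitochondrial dehydrogenase and cyclohydrolase, had 11.14, 11.29 and 11.04 in miR-342-3p-transfected cells, against 11.02, 10.88 and 10.95 in control cells. All miR-342-3p values were above the controls, replicate 3 by only 0.022. Its log2 fold change was 0.20 (SE 0.088, FDR = 0.19; 95% interval 0.0040 to 0.40). Without miR-342-3p replicate 3 it was 0.26 and was called (FDR = 0.092), and with quantile normalization repeated it was 0.26 and was called as well (FDR = 0.089).
Aldh1l2, the mitochondrial dehydrogenase that oxidizes formyl-tetrahydrofolate, had 6.37, 6.17 and 6.03 in miR-342-3p-transfected cells, against 5.95, 5.87 and 5.97 in control cells. The groups were apart, with replicate 1 highest and replicate 3 nearest to the controls. All these values were below the median of all genes on any array (7.09 to 7.24). The median change of the 5 lymphocyte markers was also largest on miR-342-3p replicate 1 (0.24, against -0.061 and 0.073 on replicates 2 and 3). What such a shift added to the rise of Aldh1l2 was not tested. The log2 fold change of 0.26 (SE 0.096, FDR = 0.14; 95% interval 0.041 to 0.48) became 0.34 and was called without miR-342-3p replicate 3 (FDR = 0.053), and it was 0.17 without miR-342-3p replicate 1 (FDR = 0.21).

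**Figure D2:**
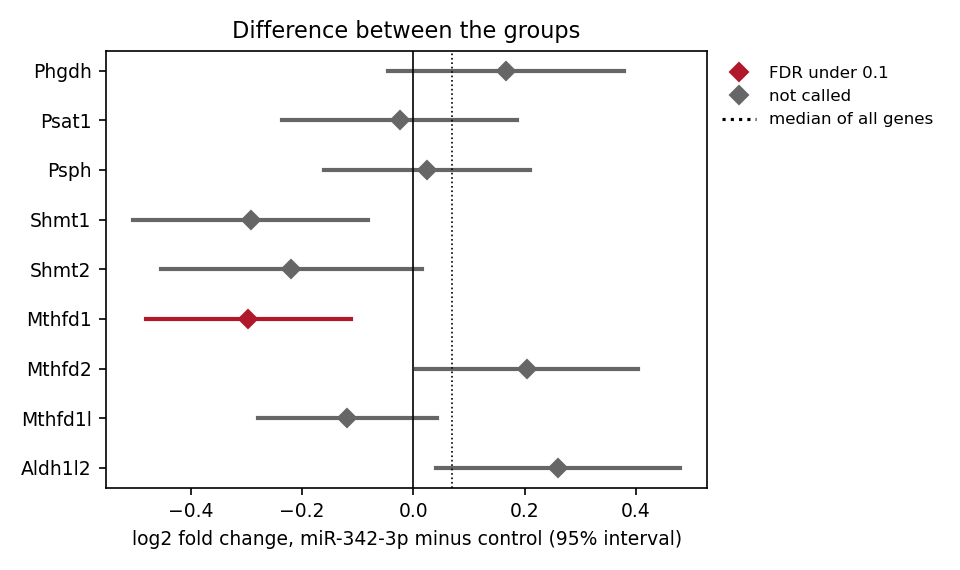
Log2 fold change of each enzyme, miR-342-3p minus control (horizontal axis), with its 95% interval from limma; red is an FDR under 0.1 and the dotted line the median of all genes (0.069). Mthfd1 (-0.30) is the enzyme called, and the intervals of Phgdh, Psat1, Psph, Shmt2 and Mthfd1l span 0.

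Whether a mitochondrial enzyme moved differently from its cytosolic relative was asked in 3 pairs, by the difference of their log2 values within an array. For Mthfd2 minus Mthfd1 this difference, set to 0 at the control mean, was 0.60, 0.53 and 0.38 in miR-342-3p-transfected cells and between -0.069 and 0.086 in control cells. The groups were apart, with a difference of 0.50 on the log2 scale between them (SD 0.11 and 0.079, n = 3 each; exact permutation test, two-sided, p = 0.1, adjusted p = 0.15 over the 3 pairs). A p of 0.1 is the smallest this exact test can give with 3 arrays against 3, so it cannot pass a threshold of 0.05. Without any 1 array the difference was between 0.45 and 0.56. Mthfd1l (-0.12) and Mthfd2l, a relative of Mthfd2 among the neighboring folate genes, were not paired with Mthfd1. Mthfd2l had a log2 fold change of -0.26 (SE 0.11, FDR = 0.19), beside -0.30 for Mthfd1. The difference of 0.50 therefore covers Mthfd2 and not the mitochondrial enzymes as a group.
For Aldh1l2 minus Aldh1l1, its cytosolic counterpart, the difference was 0.86, 0.33 and 0.47 in miR-342-3p-transfected cells and between -0.13 and 0.084 in control cells. It averaged 0.55 (exact p = 0.1, adjusted p = 0.15, n = 3 each). The low level of Aldh1l2 and the shift on replicate 1, both given above, may also bear on this difference, which was not tested. Aldh1l1 on its own had log2 values of 6.92, 7.25 and 6.98 in miR-342-3p-transfected cells, against 7.32, 7.42 and 7.30 in control cells, and a log2 fold change of -0.29 (SE 0.099, FDR = 0.12) and was called without miR-342-3p replicate 2 (FDR = 0.044).
The pair Shmt2 and Shmt1 showed no such separation. The difference was -0.069, 0.030 and 0.26 in miR-342-3p-transfected cells, which spans the control values of -0.014 to 0.0097, and it averaged 0.073 (exact p = 0.7, adjusted p = 0.7, n = 3 each). Without miR-342-3p replicate 3 it was -0.019.

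**Figure D3:**
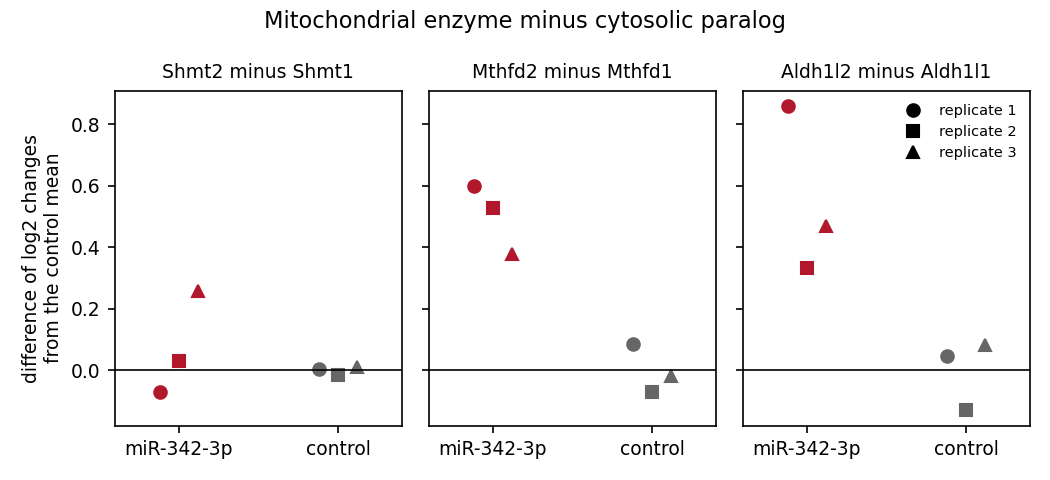
Difference between the log2 changes of a mitochondrial enzyme and its cytosolic relative (vertical axis, each relative to the control mean) on the 3 miR-342-3p arrays (red) and the 3 control arrays (grey), with the shape for the replicate. The miR-342-3p arrays lie above the controls for Mthfd2 minus Mthfd1 (0.38 to 0.60) and Aldh1l2 minus Aldh1l1 (0.33 to 0.86), and on both sides of them for Shmt2 minus Shmt1.

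The neighboring genes of the pathway were taken from fixed lists. Over all genes, 7.42% were called lower and 4.14% higher. At an unadjusted p under 0.05, limma gave 13% of all genes lower and 12.5% higher, and the methods' t-test 9.81% and 10.4%. In the folate cycle and glycine cleavage, 4 of 14 measured genes were lower and none was higher (7 lower and 1 higher at an unadjusted p under 0.05 with limma, 4 and none with the methods' t-test), with a median log2 fold change of -0.24. Lower were Ggh, the lysosomal hydrolase that shortens folate polyglutamates (-0.83, SE 0.13, FDR = 0.018), and Tyms, thymidylate synthase (-0.53, SE 0.091, FDR = 0.021). The others were Dld, the dihydrolipoamide dehydrogenase shared by glycine cleavage and the ketoacid dehydrogenases (-0.50, FDR = 0.061), and Mtfmt, which formylates the mitochondrial initiator tRNA (-0.32, FDR = 0.048).
Tyms had log2 values of 9.33, 9.52 and 9.63 in miR-342-3p-transfected cells, against 10.01, 10.05 and 10.01 in control cells, and Ggh had 7.16, 7.65 and 7.66 in miR-342-3p-transfected cells, against 8.40, 8.30 and 8.27 in control cells. For both, every miR-342-3p array lay below every control. The probe sets listed for Ggh held the same values on each array. Ggh was called with any 1 array left out, but close to the threshold without control replicate 1, 2 or 3 (FDR = 0.0999, 0.092 and 0.081). Tyms was not called without control replicate 1, 2 or 3 (FDR = 0.11, 0.12 and 0.10), nor was Mtfmt (FDR = 0.22, 0.19 and 0.18), and Dld was not called when any array other than miR-342-3p replicate 3 was left out (FDR of 0.10 to 0.22). Gldc, the glycine decarboxylase, was at 0.14 (FDR = 0.46) and the folate carrier Slc19a1 at 0.021 (FDR = 0.87).

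In the list of the methionine cycle, transsulfuration and glutathione synthesis, 2 of 14 genes were lower and 3 higher, with a median log2 fold change of 0.065. Over all genes, 7.42% were called lower and 4.14% higher. The higher ones act in the synthesis of cysteine and glutathione. Gclm, the modifier subunit of glutamate-cysteine ligase, had log2 values of 12.44, 12.54 and 12.38 in miR-342-3p-transfected cells, against 11.92, 12.00 and 11.92 in control cells (0.50, SE 0.078, FDR = 0.016). Its catalytic subunit Gclc was at 0.43 (SE 0.074, FDR = 0.021), and Cth, which makes cysteine from cystathionine, at 0.49 (SE 0.13, FDR = 0.060). Cbs, which joins serine to homocysteine, was at 0.055 (FDR = 0.63).
The lower ones belong to the methionine cycle, namely Mtr, the methionine synthase that takes its methyl group from folate (-0.40, SE 0.094, FDR = 0.048), and Ahcyl2, a relative of adenosylhomocysteinase (-0.27, FDR = 0.082). Leaving out control replicate 1, 2 or 3 ended the calls of Gclc (FDR = 0.13, 0.11 and 0.11), Cth (0.19, 0.20 and 0.19) and Mtr (0.20, 0.17 and 0.18). Gclm was not called without control replicate 1 or 3 (FDR = 0.108 and 0.102). Ahcyl2 was not called when any array other than miR-342-3p replicate 3 was left out (FDR of 0.10 to 0.28).

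Of 11 transporters of serine and glycine, 2 were higher and 2 lower, beside 4.14% and 7.42% of all genes, with a median log2 fold change of 0.14. Slc6a9, the glycine transporter GlyT1, had log2 values of 10.91, 11.14 and 10.67 in miR-342-3p-transfected cells, against 9.47, 9.22 and 9.35 in control cells. Its log2 fold change was 1.56 (SE 0.12, FDR = 0.0031), and the call held with any 1 array left out. Slc1a4, the neutral amino acid transporter ASCT1 that takes up serine, was also higher (0.59, SE 0.11, FDR = 0.026).
The mitochondrial serine carrier Sfxn1 was lower, with 9.66, 9.99 and 9.88 in miR-342-3p-transfected cells, against 10.13, 10.14 and 10.17 in control cells (-0.30, SE 0.095, FDR = 0.0995). This call lay at the threshold and was lost without miR-342-3p replicate 1 (FDR = 0.13) or without control replicate 1, 2 or 3 (FDR = 0.28, 0.27 and 0.30). Slc38a1, a sodium-coupled neutral amino acid transporter, was lower in the probe set used (-0.62, SE 0.11, FDR = 0.025), whereas its other probe set gave 0.073. Slc1a4 and Slc38a1 were not called without control replicate 1, 2 or 3 (FDR of 0.11 to 0.13 and of 0.10 to 0.12).

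Genes of the ATF4 axis, which holds Atf4, kinases that act upstream of it and known targets of it outside serine synthesis, were higher in 11 of 16 cases and lower in none (12 higher and none lower at an unadjusted p under 0.05 with limma, 11 and none with the methods' t-test). Over all genes, 4.14% were called higher, and at the unadjusted threshold 12.5% were higher with limma and 10.4% with the methods' t-test. The median log2 fold change of the ATF4 axis was 0.51, beside 0.069 for all genes and 0.025 for Phgdh, Psat1 and Psph. Atf4 itself was at 0.35 (SE 0.10, FDR = 0.079). Chac1, which degrades glutathione, had log2 values of 9.76, 9.76 and 9.35 in miR-342-3p-transfected cells, against 8.34, 8.16 and 8.36 in control cells (1.34, SE 0.12, FDR = 0.0034).
The other genes with the smallest FDR were Ppp1r15a, a phosphatase subunit that reverses the translation block of stress (1.36), Sesn2, an mTORC1 inhibitor (1.10), the transcription factor gene Ddit3 (1.07), the pseudokinase gene Trib3 (1.03) and the stress protein gene Nupr1 (0.82). Their FDRs were between 0.011 and 0.020. Asns, the asparagine synthetase, was at 0.22 (FDR = 0.13). Without control replicate 1, 2 or 3 the number of higher genes was 6, 5 and 6. These were Chac1, Ppp1r15a, Sesn2, Ddit3, Trib3 and Nupr1, with Nupr1 lost without control replicate 2 (FDR = 0.106). Atf4 was not among them, so its call was lost without control replicate 1, 2 or 3. The ATF4 list was chosen with the rise of such genes in these arrays already known, and its count is not independent evidence.

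**Figure D4:**
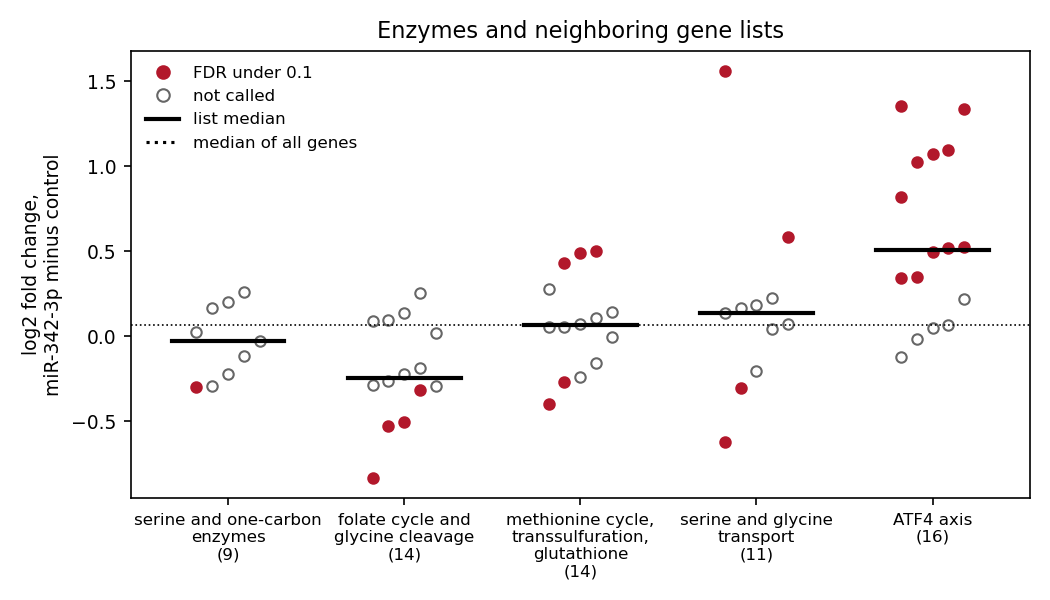
Log2 fold change, miR-342-3p minus control (vertical axis), of each measured gene in the set of 9 enzymes and the neighboring lists (number of genes in parentheses); red is an FDR under 0.1, open symbols were not called, black bars are list medians and the dotted line is the median of all genes. The 9 enzymes have a median of -0.025 and the ATF4 axis 0.51.

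The gene whose pattern was most like that of Mthfd1, by the root mean square distance of the log2 changes over the 6 arrays, was Atp5a1 (distance 0.016), followed by Cad (0.020) and Rpa2 (0.024). Among the other enzymes Shmt1 was closest, with a distance of 0.058, which placed it at rank 157 of all genes.

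RefSeq promoter windows (GRCm38.p6, 250 bases before to 50 after the start) were listed for 8 of the 9 enzymes, in 9 windows, with none for Aldh1l2. Neither TGATGNAA, the core of the composite element that ATF4 binds with C/EBP proteins, searched on both strands, nor the E-box CACGTG, which reads the same on both strands, was found in them. Of all 32851 windows, 3.97% held TGATGNAA and 7.15% held CACGTG. At these shares, finding neither in 9 windows does not set the enzymes apart. Sequence outside the windows was not searched.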

How the data were processed

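RNA from RAW264.7 cells, 3 samples transfected with the miR-342-3p mimic and 3 with the negative control mimic, was labeled from 150 ng and hybridized with 1 sample per array. The authors processed the scans in R with RMA (background adjustment, quantile normalization, summarization) and deposited the log2 signal of each probe set on each array (version not given in the sources used here). No read depth exists for arrays, so precision depends on how many there were. A legend of the paper places the cells of both groups in 3 independent experiments. Which samples shared an experiment is not stated, and the main fit did not pair them.

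Of 35556 probe sets, 21789 named 1 gene, 1621 several and 12146 none in the platform annotation. All 21698 Entrez IDs matched to RefSeq (GRCm38.p6) kept their symbols. For the 999 genes with several probe sets, the one with the largest interquartile range was kept, and each of the 9 enzymes had 1. The 19938 genes were fitted genome-wide with limma 3.58.1 (lmFit, eBayes) in R 4.3.3, two-sided, adjusted by Benjamini and Hochberg, with no filter on level. The steps were tested on simulated data. The simulation gave both groups the same spread, so it does not cover the larger spread of the miR-342-3p arrays. Figures were drawn with matplotlib 3.10.9 in Python 3.11.15.

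The enzymes and lists were chosen with earlier results of these data known, so no list was tested as a set. Named were all 9 enzymes and, from each list, up to 6 called genes with the smallest FDR. Aldh1l1 was named for its pair. Marker genes, Atf4, Asns, Cbs, Gldc, Slc19a1 and Mthfd2l were named after their values were seen. Some genes of the lists are not reported here. Alternatives were the replicate block, each array left out, other probe set choices, scalings, priors and weights, a level filter, an FDR under 0.05 and the methods' t-test.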

Additional observations from a re-analysis of the deposited data

How the results depend on the processing

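Under the alternatives no enzyme that was called changed its direction. Mthfd1 was called under 9 of 16 alternatives (log2 fold change between -0.35 and -0.23) and Shmt1 under 4, Mthfd2 under 2 and Phgdh under 1. Aldh1l2 was called under 1 of 15, as the level filter left it out. The number of lower enzymes was 0 with each array centered, at an FDR under 0.05 and with the methods' t-test, 2 with the trend and robust prior, with array weights and with genes above the median level only, and 0 to 2 with 1 array left out. Higher enzymes numbered 1 with quantile normalization repeated and 0 to 3 with 1 array left out. The count of all genes lower was 661 at an FDR under 0.05, 22 with the t-test and 102 to 2422 with 1 array left out, and that of genes higher 312, 26 and 88 to 2104 under these settings, with 408 after centering and 1817 after repeated quantile normalization. With 1 array left out, the lists had 1 to 6 lower and 0 to 1 higher genes (folate), 0 to 3 lower and 0 to 3 higher (methionine), 0 to 3 lower and 1 to 2 higher (transport) and 5 to 12 higher (ATF4), and with the t-test 0 in each. Lower genes of the methionine list numbered 1 with array weights and at an FDR under 0.05, and those of transport 1 with the probe set of the highest mean (Slc38a1 at 0.073), with centering and at an FDR under 0.05. The difference of Shmt2 minus Shmt1 was between -0.019 and 0.14 with 1 array left out. Among the settings that left out 1 array, those without a control array gave the lowest counts of all genes (lower 102, 115 and 140 without control replicate 1, 2 and 3, higher 100, 88 and 94), and that without miR-342-3p replicate 3 the highest. The causes were not tested.

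Same-numbered samples of the groups did not deviate together (correlations of -0.31, -0.16 and -0.11). With 3 arrays per group this does not settle which samples shared an experiment. With the replicate block 1445 genes were lower and 550 higher, no enzyme was called (Mthfd1 at an FDR of 0.13), and 3 genes were lower in the folate list (Mtfmt lost, FDR of 0.11) and 1 each in the methionine (Ahcyl2 lost, 0.18) and transport lists (Sfxn1 lost, 0.14).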
